A study of Mus musculus with 48 samples.

Results

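Mutant β-catenin was added to hepatocytes that also expressed MYC, and its effect on ribosome-protected fragments (RPFs) and on cytoplasmic RNA was measured by comparing livers with both alleles (BM) with livers with MYC alone (M) at day 4. RPFs are the stretches of mRNA shielded by a translating ribosome, so that their count follows how much of a coding sequence is being translated. The comparison used all libraries labelled BM and M at day 4, which were 12 of the 48 libraries and 6 of the 24 mice of the series, with 3 mice a side and an RPF and an RNA library from each mouse. The BM mice carried *Ctnnb1*ex3/+ together with *R26*-LSL-MYC and the M mice carried *R26*-LSL-MYC without the *Ctnnb1* allele. A further 12 libraries from B (*Ctnnb1*ex3/+ alone) and WT (neither allele) livers of day 4 were used only to ask whether the effect of β-catenin differed in the absence of MYC. By their labels, all mice were males aged 2 to 4 months, whereas the paper's methods describe mice of both sexes. The background was mixed C57BL/6, and all of the mice, WT included, had received AAV8.TBG.PI.Cre.rBG. In this adeno-associated virus, Cre is driven by the hepatocyte-restricted TBG promoter, so that both alleles were switched on in hepatocytes and not in the other cells of the liver. The labels give a dose of 2e+11 genome copies, both per ml and per mouse.

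β-catenin is the transcriptional effector of the canonical WNT pathway. In the absence of a WNT ligand it is phosphorylated at residues encoded by exon 3 and then destroyed, and in its presence it binds TCF/LEF factors at target promoters, among them those of feedback inhibitors of the pathway itself. In the liver this pathway is active in hepatocytes around the central vein (zone 3), which make glutamine from ammonia and hold much of the drug metabolism, and is low in hepatocytes around the portal tract (zone 1), which run the urea cycle, amino acid catabolism and gluconeogenesis. MYC is a transcription factor best known for raising ribosome production, nucleotide synthesis and cell cycle entry.

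The *Ctnnb1* allele of the BM and B mice loses exon 3 after Cre. Its sequence is shown because it is the only difference engineered between BM and M. Exon 3 of 15 lies at chr9:120779588-120779815 on the plus strand of GRCm39 and has 228 bases, or 76 codons, so that its loss keeps the reading frame of the 781-residue protein. Capitals mark codons 32 to 37, the phosphorylation motif read by the ubiquitin ligase that marks β-catenin for destruction.
Ctnnb1 exon 3: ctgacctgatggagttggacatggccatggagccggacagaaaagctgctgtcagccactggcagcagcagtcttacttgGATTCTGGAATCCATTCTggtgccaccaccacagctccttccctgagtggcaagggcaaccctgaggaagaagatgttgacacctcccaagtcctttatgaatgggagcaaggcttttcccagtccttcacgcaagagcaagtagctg

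RPF libraries held 11266040 to 12555732 counts in M and 12820973 to 13888368 in BM, and RNA libraries held 4537343 to 6540116 and 4811466 to 5411080. Levels below are CPM, that is counts per 1e+06 counts of the library total, corrected by its TMM factor. *Ctnnb1* RPFs did not separate the genotypes, with 369, 354 and 369 CPM in the M mice and 368, 362 and 357 in the BM mice, and the count over the whole coding sequence does not resolve exon 3. *Myc* RPFs were 61.0, 56.7 and 60.8 CPM in M and 43.0, 57.9 and 54.4 in BM, against 2.33 to 17.6 in WT, and these counts may hold reads of both the transgene and the mouse gene. The difference between BM and M in *Myc* RPFs was −0.19 ± 0.11 on the log2 scale (SE, adjusted p = 0.21).

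M mouse 2 stood apart from the other M mice in macrophage genes. The summed RPFs of 11 Kupffer cell and macrophage markers were 711.2, 1426 and 524.2 CPM in M mice 1, 2 and 3, and 480.4, 467.2 and 504.1 in BM. *Marco*, a scavenger receptor of macrophages, had 10.8, 137 and 3.77 RPF CPM in M and 11.4, 5.2 and 7.65 in BM. Of all genes tested for RPFs, 18.8% were called lower in BM and 19.2% higher. Of the 11 macrophage markers, 10 were called lower in BM and none higher. Only 4 were called when M mouse 2 was left out, 5 when libraries were scaled by their totals alone, and 3 when any 1 of the BM mice was left out. *Clec4f*, specific to Kupffer cells, had 208, 216 and 168 RPF CPM in M and 133, 143 and 148 in BM, so that all BM mice were lower (log2 change −0.47 ± 0.10, adjusted p = 0.0061). In these bulk livers, fewer cells of a type and less RNA per cell cannot be told apart. Of 11 endothelial markers, 1 was higher and 4 were lower, and of 11 stellate cell markers 3 were lower. With so few markers, these counts are not set apart from the all-gene shares given above. The higher endothelial markers were 2 without BM mouse 1 or M mouse 2 and none without M mouse 1 or M mouse 3. The lower ones were 2 without M mouse 2, BM mouse 2 or BM mouse 3, and the lower stellate markers were 1 without M mouse 1, M mouse 2 or BM mouse 1 and 5 without M mouse 3. With libraries scaled by totals alone 2 endothelial markers were higher and none lower, and 1 stellate marker was lower. None of the 6 cholangiocyte and 4 blood cell markers tested was called in RPFs, and 6 of 10 general hepatocyte markers, whose summed RPFs were 75150 to 94310 CPM in M and 59130 to 70490 in BM, were lower.

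With MYC expressed in both groups, mutant β-catenin changed a large share of the measured translatome in both directions. Of 11411 genes tested for RPFs, 2191 were higher in BM (19.2%) and 2143 were lower (18.8%), 38% in all (edgeR's quasi-likelihood test, Benjamini-Hochberg adjusted p under 0.1, 3 mice a side). Of 11296 genes tested for RNA, 1738 were higher (15.4%) and 1708 lower (15.1%), 30.5% in all. Most of the called changes were modest. The median called RPF change was 0.51 upwards and −0.52 downwards on the log2 scale, and 417 genes rose and 333 fell by more than 1. All BM mice were above all M mice in the RPFs of 2628 genes (23%) and below them in 2536 (22.2%). The balance of directions rests on the scaling. When libraries were scaled by their totals alone, the median change over all genes moved to 0.21 in RPFs and 0.19 in RNA, and the share of calls that were higher went from 50.6% to 80.7% in RPFs and from 50.4% to 78.4% in RNA. Changes reported here are therefore relative to the median gene, and lists are described by their counts beside these shares and by their median beside the all-gene medians of −0.001 in RPFs and 0.011 in RNA.

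RNA and RPFs moved together. Among the 10608 genes tested in both, 1234 were called higher in both (11.6%), 1343 lower in both (12.7%), 6 lower in RPFs and higher in RNA, and 1 the reverse. Across these genes the log2 changes of RPFs and RNA had a Pearson r of 0.872 (Spearman's rho 0.805), as a description over genes measured in the same mice. The plot of RPF against RNA changes shows this cloud along the diagonal, with the 10 genes called for translation efficiency off it.

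**Figure D1:**
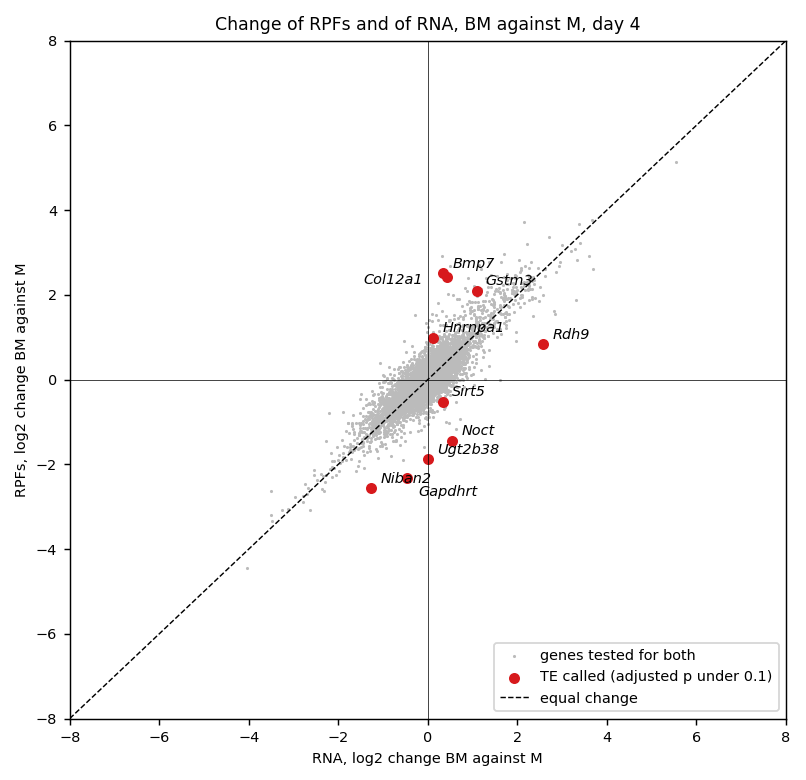
Log2 change of RPFs (vertical axis) against log2 change of RNA (horizontal axis) in BM against M at day 4, 1 point per gene for the 10608 genes tested in both, with the 10 genes called for translation efficiency marked and named. Most genes lie along the diagonal (r = 0.872), and the named genes, called in the fit without a mouse term, lie off it.

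The feedback and target genes of the WNT pathway rose. Of 19 tested for RPFs, 13 were higher and 2 lower (median log2 change 1.72), and of 20 tested for RNA, 13 were higher and 2 lower (median 1.51), with 1 lower without M mouse 2. *Axin2* (chromosome 11, 108811169 to 108841609 of GRCm39), a scaffold of the β-catenin destruction complex and a feedback inhibitor, had 1.72, 2.72 and 1.52 RPF CPM in the M mice and 26.8, 27.8 and 22.9 in the BM mice. Every BM mouse was far above every M mouse, and *Axin2* rose by 3.68 ± 0.18 in RPFs (adjusted p = 2.8e-06) and by 3.37 ± 0.23 in RNA on the log2 scale. *Lgr5*, a receptor for R-spondins that strengthens WNT signalling, had 10.8, 14.4 and 11.8 RPF CPM in M and 89.7, 89.8 and 73.7 in BM, again without overlap (log2 change 2.77 ± 0.12). *Notum*, a secreted enzyme that inactivates WNT ligands, rose from 16.9, 19.6 and 15.2 to 59.3, 81.2 and 68.3 (2.02 ± 0.13).

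The ubiquitin ligases *Rnf43* and *Znrf3*, which remove WNT receptors from the cell surface, rose by 2.01 ± 0.19 and 1.54 ± 0.14 in RPFs, and the feedback inhibitor *Nkd1* by 2.22 ± 0.25. Transcription factors of the list rose as well, with log2 RPF changes of 3.36 for *Tcf7*, 2.93 for *Sp5* and 1.72 for *Tbx3*. *Sp5* was a low gene, at 0.258 to 0.628 CPM in M and 2.89 to 5.39 in BM. The members that fell were *Lgr4*, the broadly expressed relative of *Lgr5*, by 0.66 and the adhesion receptor *Cd44* by 0.98. Leaving out M mouse 2 or any BM mouse, or scaling by totals alone, left 1 of these 2 called. Of 30 tested members of the core machinery of the pathway, 7 were higher and 6 lower in RPFs (3 without M mouse 1). These counts were near the all-gene shares of 19.2% and 18.8%, and the median log2 change was 0.05. With libraries scaled by totals alone 11 members were higher and 1 lower. *Tcf7l2*, the main TCF factor of hepatocytes, changed by −0.50 and the receptor *Lrp5* by 0.50.

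**Figure D2:**
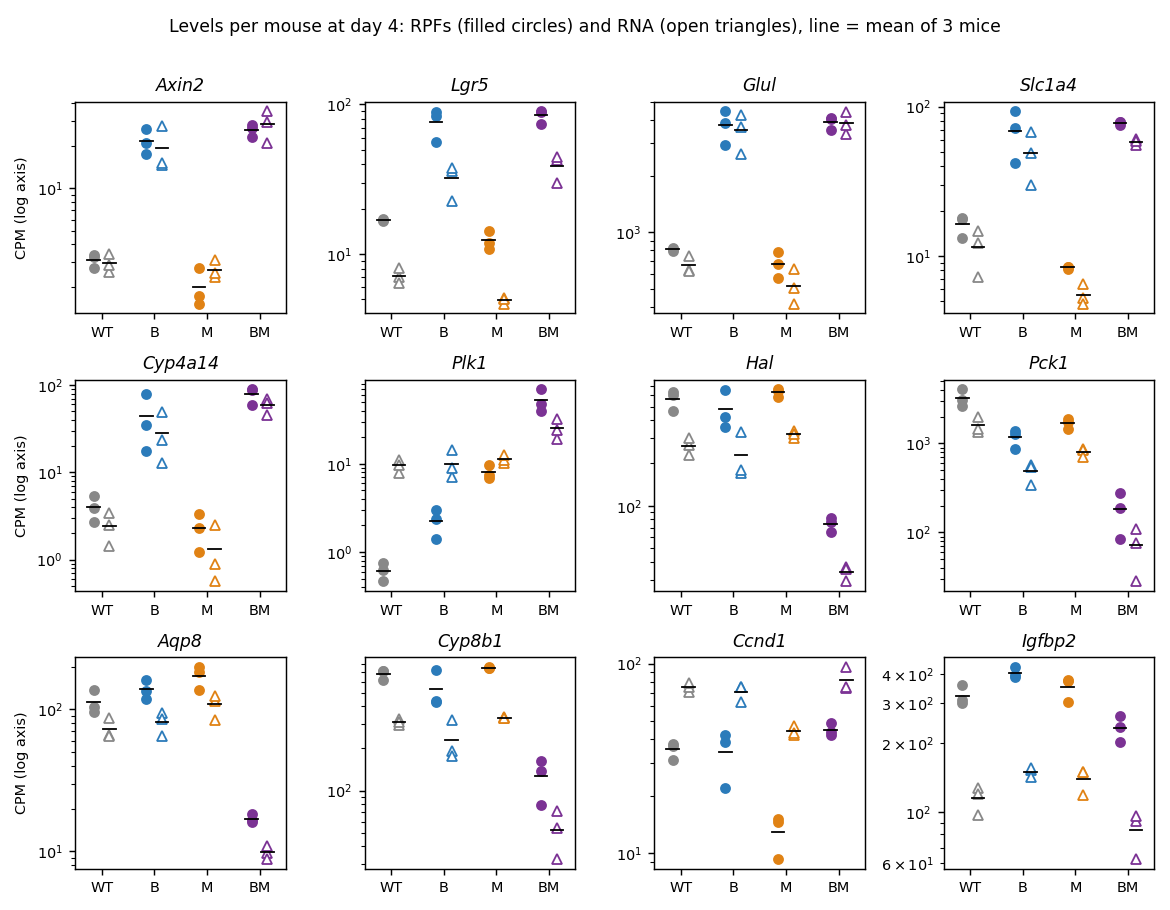
RPF CPM (filled circles) and RNA CPM (open triangles) of 12 genes in each of the 3 mice of WT, B, M and BM livers at day 4, on a log axis, with a line at the mean of each group. In *Axin2*, *Lgr5*, *Glul* and *Slc1a4* every BM mouse is above every M mouse, and in *Hal*, *Pck1*, *Aqp8* and *Cyp8b1* every BM mouse is below every M mouse.

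Pericentral genes rose and none of them fell. Of 28 tested, 21 were higher in RPFs (median log2 change 0.86) and 23 in RNA (median 1.14). *Glul* (chromosome 1, 153775690 to 153785469), glutamine synthetase, had 675, 789 and 570 RPF CPM in M and 3529, 4117 and 4040 in BM. All BM mice were above all M mice, and *Glul* rose by 2.53 ± 0.13 in RPFs (adjusted p = 3.3e-06) and by 2.87 ± 0.17 in RNA. The neutral amino acid transporter *Slc1a4* (chromosome 11, 20252180 to 20282774) was the pericentral gene with the largest rise, from 8.44, 8.47 and 8.16 RPF CPM to 75.3, 79.0 and 78.6. The mice of each group lay close together and the log2 change was 3.22 ± 0.08 (adjusted p = 5.7e-08).

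Other steps of pericentral glutamate and ammonia handling rose with *Glul*. The glutamate transporter *Slc1a2* rose by 1.99 ± 0.10 in RPFs, ornithine aminotransferase *Oat* by 1.82 ± 0.13 and the ammonium transporter *Rhbg* by 2.54 ± 0.14. *Slc1a5*, a glutamine transporter, was at 0.948, 1.81 and 0.717 RPF CPM in M and at 11.6, 6.99 and 5.72 in BM (2.77 ± 0.36), and its RNA rose by 1.36 ± 0.26. The periportal glutaminase *Gls2*, which releases ammonia from glutamine, moved the other way, from 382, 376 and 442 to 118, 90.2 and 97.3 CPM (−1.97 ± 0.11), with no overlap between the groups. Among the 19 genes of glutamine and ammonia handling tested, 9 were higher and 6 lower.

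Several pericentral genes of detoxification were among those that rose. *Cyp2e1*, an ethanol- and acetaminophen-oxidizing cytochrome P450, had 4981, 4865 and 5331 RPF CPM in M and 6485, 9301 and 7223 in BM (0.61 ± 0.14), and *Cyp1a2* rose by 1.22 ± 0.09. The glutathione S-transferase *Gstm2* rose by 2.21 ± 0.07 and *Gulo*, an enzyme of vitamin C synthesis, by 1.92 ± 0.09. The chemokine-like factor *Lect2*, a β-catenin target of the liver, rose by 2.01 ± 0.08. The 7 pericentral genes that were not called in RPFs were *Cyp2c29*, *Cyp2c37*, *Cyp2c50*, *Cyp2c54*, *Cyp27a1*, *Nr1i3* and *Slc22a3*, with log2 changes of −0.08 to 0.11. Reads of the near-identical Cyp2c genes may have been split uncertainly among them.

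Periportal genes fell almost throughout. Of 27 tested for RPFs, 25 were lower and 1 was higher (median log2 change −1.24), with the same counts in RNA (median −1.46) and with libraries scaled by totals alone. *Hal* (chromosome 10, 93324629 to 93355166), histidine ammonia-lyase, had 646, 583 and 664 RPF CPM in M and 76.9, 65.7 and 81.6 in BM. All BM mice were below all M mice, and *Hal* fell by 3.07 ± 0.10 (adjusted p = 2.8e-07) in RPFs and by 3.25 ± 0.10 in RNA. *Pck1* (chromosome 2, 172994744 to 173001066), the rate-limiting enzyme of gluconeogenesis, had 1883, 1753 and 1448 RPF CPM in M and 85.2, 186 and 276 in BM (−3.21 ± 0.35). *Sds*, serine dehydratase, went from 151, 136 and 141 CPM to 29.5, 19.9 and 27.2 (−2.47 ± 0.13). The polymeric immunoglobulin receptor *Pigr* fell by 1.90 ± 0.09 and the portal-side cytochrome *Cyp2f2* by 2.25 ± 0.15.

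Of 27 genes of glycolysis and gluconeogenesis, 12 were lower and 3 higher in RPFs (median log2 change −0.31), and 16 and 2 in RNA (1 higher without BM mouse 1 or M mouse 2). In gluconeogenesis, *Fbp1* fell by 1.72 ± 0.09 and *G6pc1*, which releases free glucose, by 1.71 ± 0.15. The higher ones included lactate dehydrogenase *Ldha* at 0.67 and *Pck2*, the mitochondrial relative of *Pck1*, at 1.09. In the urea cycle, 6 of 8 genes were lower and 1 was higher (median −0.96), with 2 higher with libraries scaled by totals alone. *Cps1*, the entry step, had 6950, 6533 and 6813 RPF CPM in M and 3567, 3509 and 3038 in BM, without overlap, and fell by 1.00 ± 0.10 on the log2 scale. Further along the cycle, *Ass1* fell by 1.26 ± 0.10, *Asl* by 1.24 ± 0.07 and *Otc* by 0.91 ± 0.07. The member that rose was *Nags*, which makes the activator of *Cps1*, from 60.6, 62.4 and 60.2 to 91.3, 82.3 and 83.4 CPM (0.50 ± 0.07). *Cdh1*, E-cadherin, was the periportal gene that was not called, with 105, 115 and 98.3 CPM in M and 102, 89.1 and 87.9 in BM (−0.18 ± 0.08, adjusted p = 0.14).

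The largest falls included genes outside the zonation lists. *Aqp8* (chromosome 7, 123061514 to 123067227), a water and ammonia channel, had 183, 137 and 199 RPF CPM in M and 18.2, 16.7 and 16.1 in BM (−3.34 ± 0.14, adjusted p = 1.3e-06). Every BM mouse was far below the lowest M mouse. *Etnppl*, a phosphoethanolamine lyase, fell from 220, 182 and 203 to 37.3, 22.8 and 29.8 CPM (−2.74 ± 0.16), and *Serpina12*, a secreted serpin, from 111, 118 and 110 to 16.5, 9.68 and 13.9 (−3.07 ± 0.15). *Selenbp2* fell by 2.71 ± 0.21, the phosphatase *Acp3* by 3.06 ± 0.26 and the transcription factor *Foxq1* by 2.78 ± 0.29. Of 5 midlobular genes tested, 4 were lower and 1, *Ccnd1*, which is described with the cell cycle genes, was higher. *Cyp8b1*, which makes the 12-hydroxylated bile acids, fell from 750, 752 and 762 CPM to 162, 138 and 79.2 (−2.57 ± 0.21). The hormone of iron control *Hamp* fell by 1.22 ± 0.14 and its duplicate *Hamp2* by 2.64 ± 0.31.

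The gene with the largest rise of RPFs by the rule for named genes was *Cyp4a14* (chromosome 4, 115343397 to 115353344), a fatty acid hydroxylase. It had 2.33, 1.21 and 3.32 RPF CPM in M and 87.0, 89.8 and 58.9 in BM (5.14 ± 0.27, adjusted p = 3.4e-06), and its RNA rose by 5.55 ± 0.28. *Cyp4a10*, its neighbour in the same gene cluster, had 39.3, 18.8 and 48.0 CPM in M and 295, 296 and 269 in BM (3.03 ± 0.27). Both genes had all BM mice above all M mice, although reads shared among Cyp4a paralogs are uncertain. Across cytochromes P450 of families 1 to 4, 11 of 53 were higher and 27 lower in RPFs, with 17 higher with libraries scaled by totals alone. *Kif26b*, a kinesin-like protein, rose from 0.378 to 0.603 CPM in M to 6.09 to 6.88 in BM (3.76 ± 0.23). The fetal liver gene *Afp* rose from 4.13, 3.63 and 4.3 CPM to 21.8, 23.2 and 19.5 (2.43 ± 0.12).

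Genes of mitosis rose together. All 53 G2/M genes tested were higher in RPFs (median log2 change 2.04) and 49 of 53 in RNA (median 1.88), and all 53 stayed called with libraries scaled by totals alone. Their summed RPFs were 1057 to 1176 CPM in M and 2533 to 3893 in BM. *Plk1* (chromosome 7, 121758646 to 121769108), the kinase that drives mitotic entry, had 6.98, 9.61 and 7.53 RPF CPM in M and 69.8, 40.0 and 46.9 in BM (2.70 ± 0.21, adjusted p = 3.2e-05), while its RNA rose by 1.15 ± 0.18. *Ccnb1*, the mitotic cyclin B1, went from 14.0, 26.8 and 20.3 to 157, 96.9 and 114 CPM (2.59 ± 0.23). BM mouse 1 was the highest BM mouse in both genes, and all BM mice were above all M mice. *Birc5*, a subunit of the chromosomal passenger complex, rose by 2.47 ± 0.21, *Top2a* by 1.84 ± 0.17 and the proliferation marker *Mki67* by 1.93 ± 0.22. *Depdc1a* and *Cdkn3*, both expressed in mitosis, rose by 3.19 ± 0.34 and 2.81 ± 0.24.

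Genes of DNA replication rose as well. Of 43 S phase genes, 38 were higher in RPFs and none lower (median 0.87), and 30 of 42 were higher in RNA (18 without BM mouse 1). *Gins2*, a subunit of the replicative helicase, rose by 1.66 ± 0.20 and *Nasp*, a histone chaperone, by 0.88 ± 0.12. Of 38 replication-dependent histone genes tested for RPFs, 25 were higher (median 0.83), and of 53 tested for RNA, 11 were higher. The RNA count was 4 without BM mouse 1 or M mouse 2, 5 without M mouse 1, 6 without BM mouse 3, 25 without BM mouse 2 and 35 with libraries scaled by totals alone. Histone counts are uncertain where coding sequences are near-identical. *H3c8* had 15.1, 16.9 and 11.7 RPF CPM in M and 53.3, 30.3 and 33.0 in BM (1.42 ± 0.22), and its RNA was 16.6, 18 and 19.0 in M and 25.4, 14.6 and 23.3 in BM, where the groups overlapped.

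At the entry to the cell cycle, 9 of 19 G1 cyclins, CDKs and brakes were higher and none lower. *Ccnd1* (chromosome 7, 144483668 to 144493662), cyclin D1, had 14.6, 15.2 and 9.32 RPF CPM in M and 43.6, 42.1 and 48.7 in BM. The groups did not overlap, and *Ccnd1* rose by 1.78 ± 0.16 in RPFs (adjusted p = 6.2e-05) and by 0.88 ± 0.12 in RNA. *Ccne1*, cyclin E1, rose by 1.26 ± 0.29 and *E2f8*, an atypical E2F repressor, by 1.11 ± 0.16. The CDK inhibitor *Cdkn1a* had 53.9, 42.2 and 39.7 CPM in M and 48.2, 42.4 and 45.7 in BM (0.01 ± 0.11, adjusted p = 0.95). Of 28 p53 targets and apoptosis regulators, 10 were higher and 2 lower, with 16 higher and 1 lower with libraries scaled by totals alone. The lower ones were also 1 when M mouse 1 or any BM mouse was left out. *Birc5*, also listed above, was the one with the largest rise, and *Bax*, which permeabilizes mitochondria, rose by 0.67 ± 0.08 and the death receptor *Eda2r* by 0.83 ± 0.12.

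**Figure D3:**
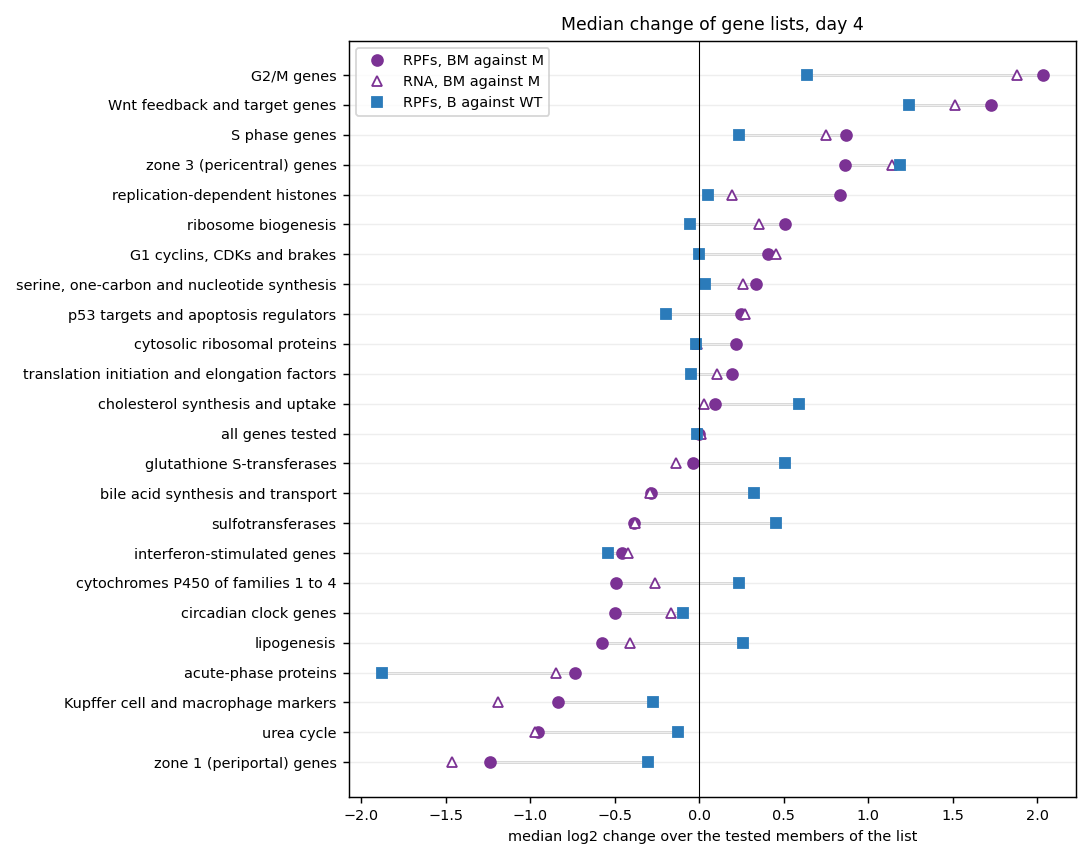
Median log2 change over the tested members of each gene list at day 4 (horizontal axis), for RPFs in BM against M (filled circles), RNA in BM against M (open triangles) and RPFs in B against WT (squares), with the median of all tested genes as reference. Grey lines join the circle and the square of a list. In RPFs of BM against M, G2/M genes (2.04) and WNT targets (1.72) are at the upper end and periportal genes (−1.24) at the lower end.

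Genes that make ribosomes rose in both measures. Of 36 ribosome biogenesis genes, 32 were higher in RPFs and none lower (median 0.51), and 21 were higher in RNA. *Nop56*, a core protein of the box C/D snoRNPs that methylate rRNA, had 33.9, 38.1 and 41.9 RPF CPM in M and 88.7, 69.8 and 68.3 in BM (1.00 ± 0.12, adjusted p = 0.00028). The nucleolar helicase *Ddx21* rose by 0.71 ± 0.08 and the RNA polymerase I factor *Rrn3* by 0.62 ± 0.08. In both groups of mice MYC was expressed, so these are differences on top of it.

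Among cytosolic ribosomal proteins, more were called in RPFs than in RNA. Of 80 tested, 39 were higher in RPFs and none lower (median 0.22), while of 83 tested for RNA 2 were higher and 1 lower (median −0.01). With libraries scaled by totals alone 34 were higher in RNA, and without BM mouse 2 the lower ones were 8. The higher ones were 1 without BM mouse 1 or BM mouse 3 and none without M mouse 2 or M mouse 3, and none was lower without BM mouse 1, BM mouse 3 or M mouse 1 or with libraries scaled by totals alone. *Rps19* had 68.7, 55.3 and 67.0 RPF CPM in M and 84.2, 96.8 and 80.8 in BM (0.46 ± 0.10, adjusted p = 0.0083), and 376, 372 and 348 RNA CPM in M against 356, 389 and 357 in BM. Its RPF groups did not overlap and its RNA groups did. The RPF count rested on single mice, with 17 higher without M mouse 2 and 22 without BM mouse 2, and it was 79 with libraries scaled by totals alone. Reads of ribosomal protein genes may be shared with their pseudogenes. Of 37 initiation and elongation factors, 17 were higher and 2 lower in RPFs and 5 and 1 in RNA. The higher ones in RPFs were 10 without M mouse 2, 11 without M mouse 1 and 33 with libraries scaled by totals alone, and the lower ones were 1 under that scaling and without BM mouse 1, BM mouse 3 or any M mouse. In RNA the higher ones were 1 without BM mouse 1, M mouse 1 or M mouse 2, 3 without BM mouse 3 and 24 with libraries scaled by totals alone, and the lower ones were 2 without BM mouse 2. Of 78 mitochondrial ribosomal proteins, 5 were higher and 8 lower (median 0.01). Leaving out single mice gave 1 to 7 higher and 1 to 6 lower, and the counts became 33 higher and none lower with libraries scaled by totals alone. The plot of ribosomal proteins shows the RPF and RNA change of each cytosolic gene at the TMM scaling.

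**Figure D4:**
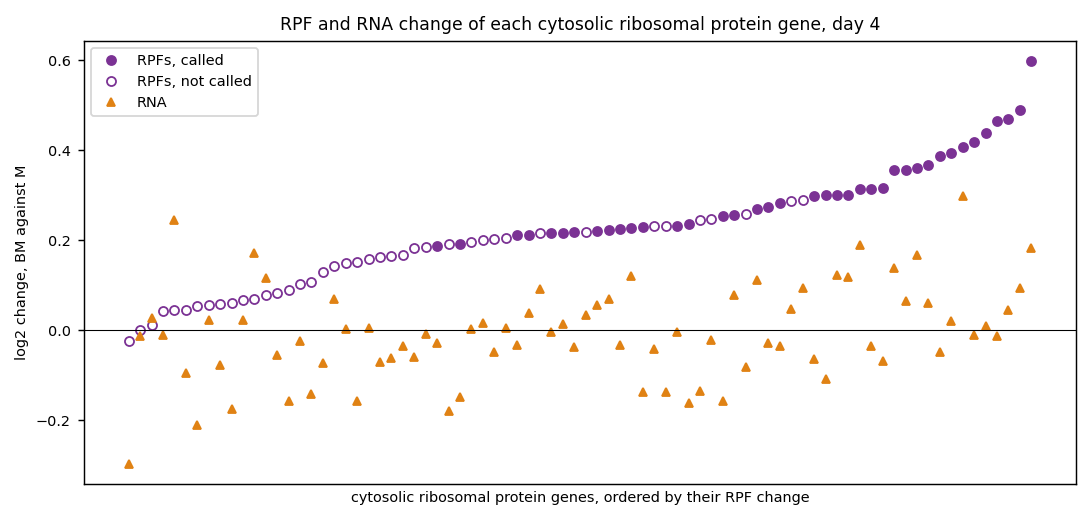
Log2 change in BM against M at day 4 (vertical axis) of RPFs (circles, filled where called) and of RNA (triangles) for each of the cytosolic ribosomal protein genes, ordered by their RPF change. RPF changes were above 0 for 79 of 80 genes and RNA changes for 36 of 80.

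Serine, one-carbon and nucleotide synthesis rose, with 17 of 28 genes higher in RPFs and 2 lower (median 0.34). The lower ones were 1 without BM mouse 2, BM mouse 3 or M mouse 1 and with libraries scaled by totals alone. *Psat1*, of serine synthesis, had 5.08, 3.02 and 3.77 RPF CPM in M and 19.3, 19.0 and 15.9 in BM (2.20 ± 0.17). *Phgdh*, the first step of that pathway, rose from 1.29, 1.36 and 0.986 to 9.13, 13.4 and 5.27 CPM (2.92 ± 0.37), while its RNA was 5.04, 4.22 and 7.95 in M and 6.67, 9.14 and 5.44 in BM, with overlap (0.32 ± 0.27, adjusted p = 0.43). The mitochondrial folate enzyme *Mthfd1l* rose by 1.99 ± 0.21 in RPFs and CTP synthase *Ctps1* by 1.17 ± 0.16. Of 20 aminoacyl-tRNA synthetases 10 were higher and 1 lower, with 6 higher without M mouse 2 and 18 higher with libraries scaled by totals alone. Of 17 genes of the integrated stress response 7 were higher and 2 lower, and the higher ones included the serine enzymes, while *Chac1* and *Trib3*, both induced by ATF4, fell by 1.56 and 1.38.

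Most lipogenic genes fell. Of 17 tested, 12 were lower in RPFs and none higher (median −0.57). In RNA 12 of 16 were lower (7 without BM mouse 3 or M mouse 1, and 7 with libraries scaled by totals alone). *Thrsp*, which promotes fatty acid synthesis, had 212, 192 and 213 RPF CPM in M and 47.5, 31.7 and 39.1 in BM, without overlap (−2.37 ± 0.13, adjusted p = 4e-06). *Acacb*, an acetyl-CoA carboxylase, fell by 1.26 ± 0.12 and the stearoyl-CoA desaturase *Scd1* by 1.00 ± 0.14. Of 22 cholesterol genes, 4 were higher and 4 lower, counts that changed with 1 mouse (2 higher without M mouse 1 or 2, and 1 or 2 lower without BM mouse 2, BM mouse 3 or M mouse 1) and that became 11 higher and 1 lower with libraries scaled by totals alone. Of 23 bile acid genes, 11 were lower and 4 higher, and 9 and 8 with libraries scaled by totals alone. *Slc10a1*, which takes bile acids up from blood, fell by 0.99 ± 0.10, and *Cyp7a1*, the rate-limiting enzyme of bile acid synthesis, rose from 109, 190 and 111 to 293, 208 and 194 CPM (0.77 ± 0.22).

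Acute-phase genes fell as well. Of 22 tested, 18 were lower in RPFs and none higher (median −0.74), and 19 in RNA. *Orm1*, an orosomucoid, had 902, 970 and 954 RPF CPM in M and 415, 447 and 398 in BM (−1.16 ± 0.08), and fibrinogen beta *Fgb* fell by 0.76 ± 0.12. Serum amyloid *Saa1* was at 26.0, 83.7 and 16.2 CPM in M, again highest in M mouse 2, and at 8.53, 9.23 and 9.19 in BM. Of the IGF and mTOR axis, 11 of 26 were lower and 4 higher, with 7 lower without M mouse 1 or BM mouse 3, and 6 lower and 7 higher with libraries scaled by totals alone. *Igf1* had 256, 225 and 254 RPF CPM in M and 134, 116 and 133 in BM (−0.93 ± 0.09), and *Igfbp2*, an IGF-binding protein, had 376, 374 and 301 in M and 262, 235 and 201 in BM (−0.58 ± 0.11, adjusted p = 0.0043). All BM mice were below all M mice in both. *Mtor* was not called, at 108 to 134 CPM in M and 103 to 116 in BM (−0.11 ± 0.09, adjusted p = 0.40).

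Of 24 interferon-stimulated genes 12 were lower and none higher, and of 18 circadian clock genes 10 were lower and none higher in RPFs. In RNA, 3 of 17 clock genes were higher (1 without BM mouse 1 or M mouse 2, and 5 with libraries scaled by totals alone) and 4 lower. *Ifih1*, an RNA sensor, had 85.8 to 91.5 RPF CPM in M and 59.8 to 64.1 in BM, and *Bhlhe40*, a repressor of the clock, had 14.7 to 20.7 and 4.92 to 9.19. With libraries scaled by totals alone these counts became 7 lower and 1 higher, and 8 lower and 1 higher. Of 21 transcription factors of hepatocyte identity 3 were lower and 2 higher, with *Cebpa* at −0.84 ± 0.08 and *Hnf4a* not called at −0.20. The higher ones were 4 without BM mouse 1 and 1 without BM mouse 3 or M mouse 1, and the counts became 1 lower and 8 higher with libraries scaled by totals alone.

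Translation efficiency (TE) sets the RPFs of a gene against its RNA and was tested as the interaction of genotype and library type. Of 10608 genes, 4 had a higher (0.0377%) and 6 a lower TE in BM (0.0566%, together 0.0943%, edgeR's quasi-likelihood test with adjusted p under 0.1), and 539 had an unadjusted p under 0.05. The libraries of a mouse are paired by the labels. This fit, and the fits that left out single mice, did not use that pairing. TE changes given below come from the fit without a mouse term unless that term is named. When both libraries of each mouse were joined by a mouse term, 143 genes had a higher (1.35%) and 77 a lower TE (0.726%), 2.07% in all. *Bmp7*, a ligand of the BMP family, had 1.03, 1.36 and 1.97 RPF CPM in M and 8.89, 8.21 and 7.77 in BM, while its RNA was 30.8, 30.4 and 39.5 in M and 45.6, 38.9 and 44.6 in BM (log2 TE change 2.17 ± 0.24, adjusted p = 0.0011). The RPF groups were far apart and the RNA groups close. *Col12a1*, a fibril-associated collagen, had 4.22, 3.86 and 2.96 RPF CPM in M and 22.8, 16 and 20.4 in BM, with RNA of 16, 17.7 and 24.9 against 30.9, 20.3 and 27.7 (TE 2.00 ± 0.28, adjusted p = 0.0071).

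Of the genes with a lower TE, some had RPFs that fell while RNA did not. *Noct*, a phosphatase with a daily rhythm in liver, had 17.3, 12.1 and 13.1 RPF CPM in M and 4.27, 3.78 and 7.52 in BM, while its RNA rose from 142, 164 and 154 to 258, 217 and 210 (TE −1.99 ± 0.25, adjusted p = 0.0026). *Ugt2b38*, a glucuronosyltransferase with close paralogs, had RPFs of 19.1, 26.9 and 30.8 against 8.83, 7.05 and 4.95, and RNA of 214, 207 and 242 against 233, 224 and 222 (TE −1.88 ± 0.23). *Rdh9*, a retinol dehydrogenase, was higher in both measures but more in RNA, with an RPF change of 0.83 and an RNA change of 2.58 (TE −1.75 ± 0.25). Its call was lost without M mouse 1 and was made with the mouse term (edgeR adjusted p = 2.49e-12). *Gapdhrt*, a retrotransposed copy of *Gapdh* whose reads are uncertain, had a TE change of −1.84 ± 0.21 at 0.45 to 0.533 RPF CPM in BM. The TE calls of *Niban2* (−1.30), *Gstm3* (1.01), *Sirt5* (−0.86) and *Hnrnpa1* (0.87) were lost when single mice were left out, for *Niban2* M mouse 1 or 2, for *Sirt5* any of the 6 mice, for *Gstm3* any but M mouse 3 and for *Hnrnpa1* any but BM mouse 3. With the mouse term all 4 were called, with edgeR adjusted p of 3.8e-05 for *Niban2*, 5.28e-07 for *Gstm3*, 0.00055 for *Sirt5* and 4.75e-07 for *Hnrnpa1*.

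Among the 80 cytosolic ribosomal proteins, the log2 TE change was above 0 for 76 (51.3% of all genes), with quartiles of 0.16 and 0.32 and a median of 0.23. None of them was called on its own, and 25 of 80 were called higher with the mouse term, against 1.35% of all genes in that fit. The 38 histones tested had a median TE change of 0.57, with 13 called higher with the mouse term. Of 53 G2/M genes that fit called 12 higher and 1 lower, among them *Plk1* (1.54) and *Top2a* (0.79) higher and *Mki67* (−0.48) lower. It also called a higher TE for *Phgdh* (2.58) and *Ccnd1* (0.91), and a lower TE for the ferritin chain *Fth1* (−0.69) and for *Cyp1a2* (−0.53) and *Cyp2e1* (−0.47).

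The effect of β-catenin in the presence of MYC was then set against its effect without MYC, B against WT, which used other mice. B mouse 1 stood apart from B mice 2 and 3. Its summed RPFs of WNT targets were 304.3 CPM against 482.8 and 420.2, with 228.8 to 243.0 in WT. Its summed periportal RPFs were 75220 CPM against 63120 and 62220, with 74470 to 86250 in WT. Without MYC, 690 genes were higher (6.24%) and 698 lower (6.31%) in RPFs of 11058 tested (12.6%), and 497 (4.52%) and 389 (3.54%) in RNA of 10993 tested (8.06%). Of the 687 higher in B and tested in both comparisons, 47.9% were also higher in BM against M and 13.2% were lower, and of the 688 lower in B, 48.1% were lower and 7.12% higher. In the other direction, of 2024 genes higher in BM against M, 16.3% were higher in B against WT, and of 2115 lower genes 15.7% were lower. Across 10970 genes the changes had a Pearson r of 0.383 (rho 0.229). Tested as a difference of the effects over the 12 mice, 948 genes had a more positive (8.19%) and 1360 a more negative RPF change (11.7%) in the presence of MYC (19.9% of 11577), and 641 (5.56%) and 814 (7.06%) in RNA (12.6% of 11523). With libraries scaled by totals alone, the RPF split was 1507 and 837, so that 64.3% rather than 41.1% of the calls were more positive, and with DESeq2's size factors 48.6%.

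**Figure D5:**
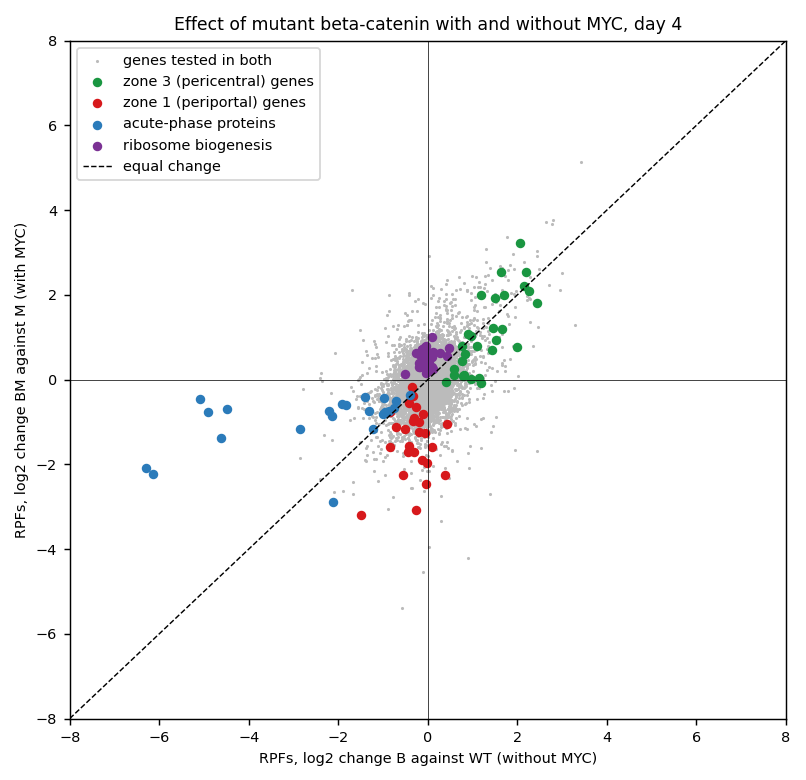
Log2 RPF change of BM against M (vertical axis) against that of B against WT (horizontal axis) at day 4, 1 point per gene for the 10970 genes tested in both, with pericentral, periportal, acute-phase and ribosome biogenesis genes coloured. The dashed line marks equal change. Pericentral genes lie to the right of 0, most periportal genes lie lower on the vertical axis than the dashed line, most acute-phase genes lie to the left, and ribosome biogenesis genes lie above 0 on the vertical axis and close to 0 on the horizontal one.

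Pericentral genes rose with and without MYC. Without it, all 28 were higher in B (median log2 change 1.19), and 10 of them had a smaller and 3 a larger change with MYC (1 larger without BM mouse 2, M mouse 1, WT mouse 1 or WT mouse 3). *Glul* was at 2944, 3853 and 4450 RPF CPM in B and 816, 825 and 791 in WT, a rise of 2.19 ± 0.14, and the difference of the effects was 0.31 ± 0.20 (adjusted p = 0.32). *Slc1a4* differed, with 41.9, 92.8 and 72.2 CPM in B and 18, 13.2 and 17.6 in WT (difference 1.14 ± 0.31, adjusted p = 0.027). The level of *Slc1a4* in BM overlapped that in B, and the M mice lay below the WT mice. For *Cyp2c29* the difference was −0.73 ± 0.11, since it rose by 0.81 ± 0.09 in B against WT and was not called in BM against M.

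Periportal genes fell much further with MYC. In B against WT 10 of 27 were lower and 1 higher (median −0.30), and the difference of the effects was called more negative for 19 of 27 and more positive for none (median −1.06). *Hal* was at 660, 360 and 425 RPF CPM in B and 467, 606 and 636 in WT, with an overlap that rested on B mouse 1 (−0.26 ± 0.20). The difference of the effects was −2.84 ± 0.26 (adjusted p = 4.6e-05). *Aqp8* had 162, 119 and 134 CPM in B and 103, 95.9 and 137 in WT, also overlapping, with a difference of −3.65 ± 0.23 (adjusted p = 1.6e-06). *Pck1* fell in both settings, by 1.49 ± 0.19 without MYC and further with it. Of 8 urea cycle genes, 7 had a more negative change with MYC, *Ass1* by −1.22 ± 0.14.

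Lipid and xenobiotic genes also had a more negative response with MYC. Of 17 lipogenic genes, 6 were higher and none lower in B against WT, and 13 had a more negative change with MYC. *Acacb* had 333, 337 and 412 CPM in B and 310, 241 and 342 in WT, and its difference was −1.54 ± 0.19. Of 22 cholesterol genes 15 were higher in B, and 12 had a more negative change with MYC, among them *Sc5d* at −1.01 ± 0.18. Of 22 glutathione S-transferases tested, 13 were higher and none lower in B, against 6 higher and 9 lower in BM against M (9 and 5 with libraries scaled by totals alone), and 14 of 22 had a more negative change with MYC. Of the cytochromes 23 of 51 tested were higher and 7 lower in B. Of 54 tested for the difference, 30 had a more negative and 1 a more positive change with MYC. With libraries scaled by totals alone, 12 lipogenic genes, 10 cholesterol genes, 12 glutathione S-transferases and 28 cytochromes had a more negative change.

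Ribosome biogenesis and G2/M genes went the other way. Of 36 ribosome biogenesis genes, 1 was higher and 1 lower in B against WT, and 25 had a more positive change with MYC and none a more negative one. *Nop56* was at 25.6, 24.5 and 21.0 CPM in B and 23.3, 19.4 and 22.5 in WT, overlapping, and its difference was 0.87 ± 0.17 (adjusted p = 0.005). Of the G2/M genes, 14 of 37 tested were higher in B, and of 53 tested for the difference 22 had a more positive change with MYC and none a more negative one. Some of the 53 passed the count filter only with the M and BM mice included, so that this count is partly set by the filter. With at least 10 counts required in every library, 15 G2/M genes had a more positive change and none a more negative one. Against 8.19% of all genes with a more positive change, 8 of 43 S phase genes had one and 1 had a more negative one, with 5 more positive without B mouse 1 or M mouse 1. The more negative call was made only in the absence of B mouse 1, BM mouse 1 or BM mouse 3 among the fits that left out 1 mouse, and not with libraries scaled by totals alone. Of 80 cytosolic ribosomal proteins 10 had a more positive change, a count that was 2 without BM mouse 2, M mouse 2 or WT mouse 3, 3 without B mouse 3, 5 without BM mouse 1, 6 without B mouse 1 or WT mouse 1, 24 without WT mouse 2 and 35 with libraries scaled by totals alone. Of 78 mitochondrial ribosomal proteins 4 had a more positive and 3 a more negative change, with 1 to 5 and 1 to 4 when single mice were left out. *Ccnd1* RPFs overlapped between B and WT (22.1, 41.8 and 38.7 against 37.9, 31.2 and 36.8 CPM). The overlap rested on B mouse 1, since the other B mice were above all WT mice. For *Ccnd1* the difference of the effects was 1.82 ± 0.29 (adjusted p = 0.0013). The BM level of *Ccnd1* was above all B and WT mice, and the M level was below them.

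Acute-phase genes fell more without MYC. In B against WT all 22 were lower (median −1.88), and 12 had a more positive difference with MYC and none a more negative one. *Saa4* was at 281, 133 and 218 CPM in WT and 52.2, 59.5 and 68.7 in B, against 85.8, 93.2 and 84.7 in M. Here the M mice were already below the WT mice. *Igfbp2* rose in B against WT (0.31 ± 0.09, adjusted p = 0.063) and fell in BM against M, with a difference of −0.92 ± 0.16.

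Promoters were searched for the TCF/LEF motif CTTTGAT or its reverse complement, in the 250 bases before and 50 after each start of RefSeq's GRCm38.p6 annotation, which was matched for 9021 of the RPF-tested genes. It was found in 3.1% of all these promoters, 3.51% of those of genes higher in BM and 2.45% of those lower. Of the WNT target genes 2 of 11 promoters held it, of the pericentral genes 3 of 22 and of the periportal genes 2 of 16 (*Hal* and *Nags*). The 5 WNT and pericentral matches are shown with 12 bases on either side and the motif in capitals, in the direction of the gene. They lie at chr2:70474807-70474837 (plus strand), chr14:61038171-61038201 (minus), chr2:102706219-102706249 (plus), chr13:56548552-56548582 (minus) and chr19:39286954-39286984 (plus), and the motif is 104, 202, 207, 32 and 119 bases before the start.
Sp5: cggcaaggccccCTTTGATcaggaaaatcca
Tnfrsf19: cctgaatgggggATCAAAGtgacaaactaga
Slc1a2: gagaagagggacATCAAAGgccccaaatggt
Lect2: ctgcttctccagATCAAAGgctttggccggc
Cyp2c29: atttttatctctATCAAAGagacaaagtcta
Of these genes, *Sp5*, *Tnfrsf19*, *Slc1a2* and *Lect2* rose by 2.93, 2.11, 1.99 and 2.01 in RPFs, and *Cyp2c29* was not called (0.11). The E-box CACGTG, which MYC binds, was in 11.8% of all promoters and in 7 of 31 of the ribosome biogenesis genes (22.6%). It was in 12.7% of the promoters of genes higher in BM and 10.1% of those lower. The share was 10.0% for cytosolic ribosomal proteins, 6.38% for G2/M genes, 4.55% for pericentral genes, 12.5% for periportal genes and 18.2% for WNT targets. A match describes these letters only and shows no binding.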

How the data were processed

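RPFs and cytoplasmic RNA of 12 livers of day 4, in 24 libraries, were used as deposited. For RPFs, the authors trimmed reads, removed duplicates by their unique molecular identifiers, aligned reads to the most abundant transcript of each gene (GENCODE vM27, GRCm39) and deposited raw counts over coding sequences, leaving out a stretch of codons at the start and at the end of each. For RNA, per the labels and the paper's methods, reads were aligned with Bowtie2 2.3.5.1 and the authors deposited the expected counts of RSEM 1.3.3 per isoform, which were summed per gene and rounded. A transcript absent from an RPF table was taken as 0.

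Counts were tested with edgeR 4.0.16 in R 4.3.3 (quasi-likelihood F test, TMM factors, filterByExpr with a minimum count of 10 and minimum total of 15, Benjamini-Hochberg adjusted p under 0.1) between 3 M and 3 BM mice. TE was the genotype by library type interaction without a mouse term, and the difference of effects with and without MYC was a contrast over 12 mice. Positive log2 changes are higher in BM. Genes were named by rule (the 10 largest RPF changes in each direction among genes called in both measures, without overlap of mice and at 5 CPM or more in the higher group; every TE call; genes the paper names; and up to 4 members of each list by RPF p, plus members a sentence needed). The members and lists were chosen with earlier results of these data known. No batches are given in the labels. The RPF and RNA libraries of a mouse are paired by the labels, and their deviations from the group mean had a Pearson r of 0.201 to 0.496 across genes. Each mouse is a replicate, and mouse numbers do not pair M with BM mice. Scripts were tested on simulated data. Alternatives were other scalings, filters and thresholds, DESeq2 1.42.0, 1 fit of 4 genotypes, a mouse term, RNA of the RPF transcript alone and leaving out each mouse. S and G2/M genes came from Seurat 5.3.0.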

Additional observations from a re-analysis of the deposited data

Results flagged for a closer look

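The effect of β-catenin differed with and without MYC by the test of the difference itself (edgeR's quasi-likelihood test of the contrast over 12 mice, adjusted p under 0.1). In RPFs the effect was more positive with MYC for 948 genes and more negative for 1360, and in RNA for 641 and 814. Among the genes named by rule, the log2 difference was −3.65 for *Aqp8*, −3.06 for *Etnppl*, −2.84 for *Hal* and −2.81 for *Gapdhrt*. It was −2.76 for *Serpina12*, −2.23 for *Niban2*, −2.22 for *Cyp8b1* and −2.18 for *Acp3*, and −1.74 for *Pck1*. Smaller negative differences were −1.06 for *Selenbp2*, −0.92 for *Igfbp2* and −0.61 for *Sirt5*. Positive differences were 0.60 for *Lgr5*, 0.88 for *Axin2*, 0.93 for *Hnrnpa1*, 1.14 for *Slc1a4*, 1.70 for *Col12a1* and 1.82 for *Ccnd1*. The calls of *Axin2*, *Lgr5*, *Selenbp2* and *Sirt5* were lost when single mice were left out. For *Axin2* these were every mouse but BM mouse 3, M mouse 2, B mouse 2 and WT mouse 1, and for *Lgr5* BM mice 1 and 2, M mice 1 and 3 and any WT mouse. For *Selenbp2* they were M mouse 2, B mouse 1 and WT mice 1 and 3, and for *Sirt5* M mouse 2, B mouse 3 and WT mouse 1. Single outlying mice were not tested for in groups of 3.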

How the results depend on the processing

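Scaling by library totals alone moved the counts to 4445 higher and 1065 lower in RPFs, 3796 and 1047 in RNA, 7 higher in TE, and 1507 more positive and 837 more negative in the RPF difference of the effects. Under that scaling *Ctnnb1* RPFs changed by 0.21 on the log2 scale and passed the threshold. With DESeq2, 1109 genes were higher in RNA, and 15 had a higher and 11 a lower TE. With an adjusted p under 0.05, 2 had a higher TE, and 594 in RPFs and 365 in RNA had a more positive difference of the effects. A mouse term joining both libraries of a mouse (a replicate block by mouse) gave 143 genes with a higher and 77 with a lower TE. Leaving out each mouse gave 1607 to 2119 higher and 1594 to 2133 lower in RPFs, 1190 to 1801 and 1241 to 1812 in RNA, 2 to 5 and 3 to 6 in TE, 653 to 1017 and 977 to 1342 in the RPF difference, and 356 to 733 and 585 to 903 in the RNA difference. Mouse numbers do not pair the groups (deviation r of −0.13 to 0.1 between M and BM mice), and a replicate block by number gave 1953 and 1932 in RPFs, 1931 and 1857 in RNA, 847 and 1276 in the RPF difference and 736 and 917 in the RNA difference. The causes of these shifts were not tested. Of the single-gene values, 11518 kept their side of the threshold under an alternative, 549 lost it, 197 gained it and 1 changed sign. Counting depth limits genes of a few CPM, and with 3 mice a side small changes may have been missed.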
